A study of Mus musculus with 8 samples.

Results

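The genes described here are 10 effectors that cells induce in response to interferon and that act against viruses: Bst2, Ifitm1, Ifitm2, Ifitm3, Mx1, Mx2, Rsad2, Rtp4, Ifi44 and Lgals3bp. They were taken by name from the 24972 genes of the deposited table, and all 10 were found. RNA sequencing had measured them in primary mouse embryonic fibroblasts, cultures grown from dissociated embryos of embryonic day 14, passaged 2 times in medium with 10% fetal bovine serum and given no treatment. The 4 genotypes were wild type (WT), Tfam+/- with a single intact Tfam allele, Zbp1-/- with none of Zbp1, and the double mutant Tfam+/-Zbp1-/-, at 2 libraries each. TFAM coats mitochondrial DNA and is needed to transcribe it, and ZBP1 is an interferon-inducible sensor of nucleic acids in the Z conformation. The mouse strain and the design of the alleles are not stated in the labels. Nor do the labels state whether a genotype's libraries were made from different embryos, so p-values measure only the spread between these libraries, which may be technical.

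Interferons bind receptors at the cell surface, and the signal reaches the nucleus through STAT proteins and IRF9, which together bind the interferon-stimulated response element in the promoters of their target genes. The products of these targets block different steps of viral replication. IFITM proteins hinder the fusion of virus and cell membranes, Mx proteins are GTPases that trap viral components, viperin (Rsad2) makes a nucleotide that ends viral RNA chains, and tetherin (Bst2) holds newly formed particles at the cell surface. Fibroblasts respond to interferon and are a standard cell type for such measurements.

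Promoter sequence was examined for the members because a shared response element is what the family is known for. RefSeq windows (GRCm38.p6, the assembly also called mm10) from 250 bases before to 50 bases after the transcription start were found for 7 of the 10 genes; Mx1, Mx2 and Rtp4 had none. Stretches of 60 bases before the start are shown 5′ to 3′ on the gene's strand, for the members that differ most in what they hold. Capitals mark matches, on either strand, to GAAANNGAA, a core of the interferon-stimulated response element, or to AANNGAAA, a core that IRF proteins bind.
Bst2: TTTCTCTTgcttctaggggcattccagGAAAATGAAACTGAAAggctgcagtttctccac
Rsad2: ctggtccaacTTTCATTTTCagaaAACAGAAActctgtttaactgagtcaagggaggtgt
Ifi44: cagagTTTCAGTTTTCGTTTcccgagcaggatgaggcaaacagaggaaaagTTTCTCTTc
Lgals3bp: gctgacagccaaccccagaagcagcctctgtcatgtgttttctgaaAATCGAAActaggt
Ifitm2: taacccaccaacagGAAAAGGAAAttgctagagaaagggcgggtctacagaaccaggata
Ifitm1: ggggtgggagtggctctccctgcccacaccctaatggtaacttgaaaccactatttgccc
The Bst2 stretch lies at chr8:71537570-71537629 on the minus strand and holds 2 overlapping matches to the response element core. The Rsad2 stretch, at chr12:26456523-26456582 on the minus strand, holds 1 such match, from 119 to 111 bases before the start. The Ifi44 stretch is at chr3:151749911-151749970, the Lgals3bp stretch at chr11:118401960-118402019 and the Ifitm2 stretch at chr7:140955962-140956021, all on the minus strand. The Ifitm1 stretch, at chr7:140968016-140968075 on the plus strand, has no match, and neither does the rest of its window. The windows of Ifitm1 and Ifitm2 lie inside the gene spans given below, at a start within the gene. Sequence before the outer 5′ end of these genes was not examined.

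Across the 7 windows, GAAANNGAA was present in 5 (Bst2, Ifitm2, Ifitm3, Rsad2 and Ifi44), while 8.56% of all 32851 RefSeq windows of the same length hold it. AANNGAAA was present in 6, in all but Ifitm1, against 23.9% of all windows. The gamma-activated site TTCNNNGAA, which STAT dimers bind, was present in 2 (Bst2 and Ifitm3), against 8.3% of all windows. These 3 motifs overlap in places, so the counts are not independent. In Ifitm3 the matches lie after the start, from base 2 to base 28, and in Ifi44 the GAAANNGAA match spans the start. A match is a description of letters in the window and does not show that a factor binds there.

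**Figure D1:**
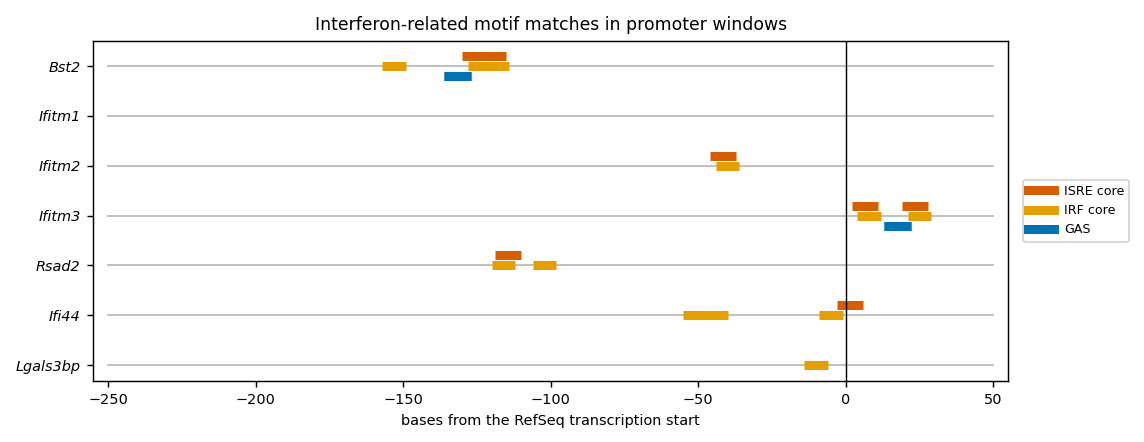
Matches to GAAANNGAA (ISRE core), AANNGAAA (IRF core) and TTCNNNGAA (GAS) in the 7 RefSeq promoter windows, with the distance in bases from the transcription start on the x axis and 1 gene per line. Matches of Bst2 and Rsad2 lie over 90 bases before the start, and those of Ifitm2 and Lgals3bp lie within 50 bases before it. Those of Ifitm3 lie after it, and Ifitm1 has none. The windows of Ifitm1 and Ifitm2 lie inside their gene spans.

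The members are spread over 6 chromosomes (GRCm38.p6). Ifitm2 (chr7:140954837-140959686), Ifitm1 (chr7:140967429-140969827) and Ifitm3 (chr7:141009590-141010744) neighbour each other on chromosome 7. Mx1 (chr16:97447035-97462906) and Mx2 (chr16:97536081-97560901) lie 73175 bases apart on chromosome 16, which also carries Rtp4 (chr16:23520219-23614222). Bst2 is at chr8:71534255-71537472, Rsad2 at chr12:26442743-26456452, Ifi44 at chr3:151730922-151749910 and Lgals3bp at chr11:118392747-118401959. RefSeq annotates both Mx genes of the reference strain as transcribed pseudogenes, and many laboratory strains are known to lack working Mx proteins, so their transcripts are described here and not their proteins. Some members share exon sequence with other genes, and how the authors assigned such reads is not given. Of all 31-base words in the transcripts, 55.5% of those of Ifitm2, 20.5% of Ifitm3, 12.5% of Rtp4, 11.6% of Ifitm1, 8.12% of Mx1 and 7.96% of Mx2 also occur in another gene, so the levels of these members, Ifitm2 above all, are uncertain. Rsad2 and Ifi44 share under 1% of their words, and Bst2 and Lgals3bp share 0%.

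Values below are the authors' normalized counts, and library totals were 16752835 to 18303036. Tests compared log2(normalized count + 1) with limma over the 13267 genes with a mean of at least 10, and a gene counted as called when its p, adjusted by Benjamini-Hochberg, was under 0.05. As a check of the labels, Tfam was at 278 to 424 in the 4 libraries with the Tfam+/- genotype and at 471 to 675 in the other 4. Zbp1 was at 64.6 and 69.8 in Tfam+/-, at 3.19 and 7.34 in WT and at 0.861 to 3.79 in the 4 libraries labelled Zbp1-/-, so WT and Zbp1-/- overlapped and its level does not separate these genotypes. Tfam+/- replicate 1 and Zbp1-/- replicate 2 stood apart from the other library of their genotype in a shared way: the differences between replicates 1 and 2 across genes had r = -0.70 between Tfam+/- and Zbp1-/-. Results are therefore given also with a term shared by these 2 libraries, and with the 6 other libraries alone. The 6 hold 1 library of Tfam+/- and 1 of Zbp1-/-, so the spread in that fit comes only from WT and double mutant libraries. Replicates of those genotypes differed least (SD 0.217 and 0.213 log2 units, against 0.398 in Tfam+/- and 0.373 in Zbp1-/-). For the 6 libraries sizes are given and, for some comparisons, calls. Only the double mutant against WT has 2 libraries on each side in that fit. Calls in the other comparisons and the interaction rest on 1 library of Tfam+/-, of Zbp1-/- or of both. The spread within these 2 genotypes is not measured there, so no conclusion is drawn from those calls. The fibroblast markers were high in every library, at a summed level of 500520 to 737090 for 10 genes. Summed levels of 5 endothelial markers (197 to 411), 5 epithelial markers (185 to 490) and 5 muscle markers (600 to 1757) were low, and no gene of these lists was at 0 in all libraries. The leukocyte markers (10 genes, none at 0 in all libraries) summed to 4710 and 4762 in WT cells, 5428 and 6186 in Tfam+/- cells, 2766 and 2924 in Zbp1-/- cells and 2393 and 2418 in double mutant cells. In bulk samples, fewer cells of a type and less RNA per cell cannot be told apart.

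**Figure D2:**
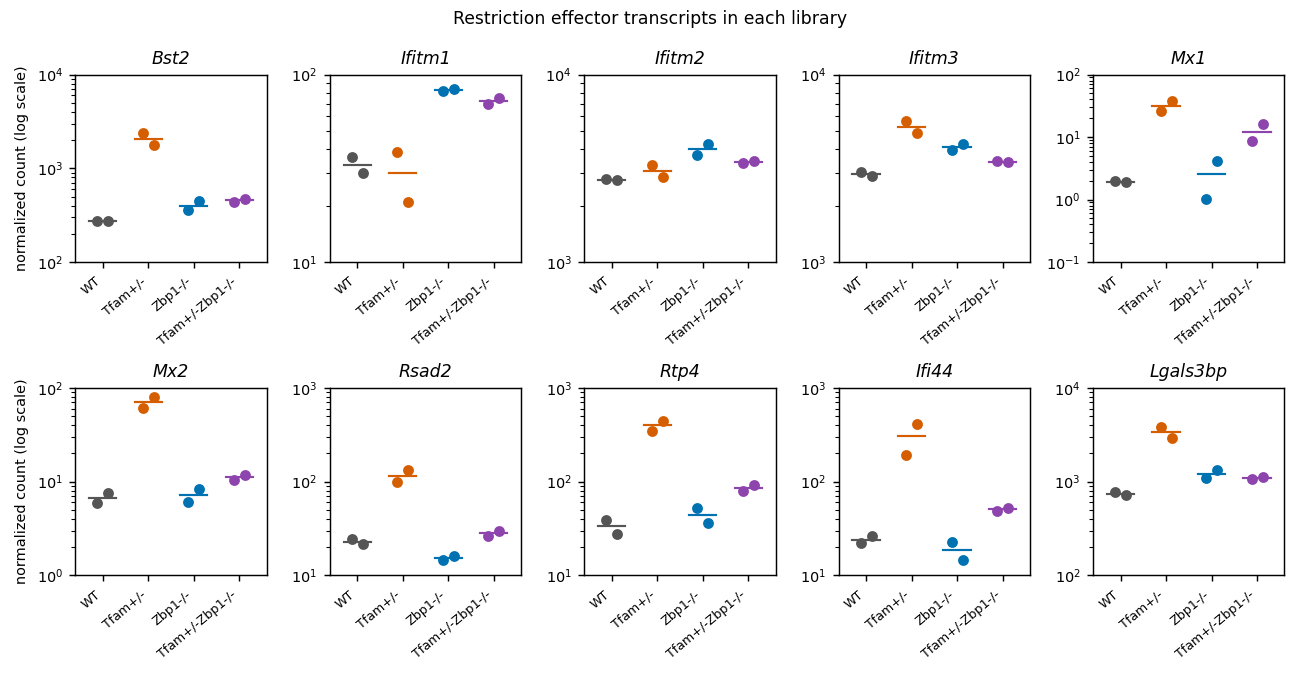
Normalized count (log scale) of each member in each of the 8 libraries, by genotype, with a line at the mean of the 2 libraries. In 8 of the 10 genes both Tfam+/- libraries lie above all 6 others, and Ifitm1 and Ifitm2 do not show this. The share of all genes with this pattern was not computed. Both Tfam+/- libraries lie above both WT libraries in 23.3% of all genes tested.

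The first question was what loss of a Tfam allele does to these transcripts in cells that have Zbp1. In Tfam+/- against WT, 7 of the 10 rose, namely Bst2, Ifitm3, Mx2, Rsad2, Rtp4, Ifi44 and Lgals3bp, and none fell. Over all genes tested, 0.565% were called higher. Mx1 was 3.44 ± 0.55 (SE) log2 units above WT with an adjusted p of 0.0586, and Ifitm1 and Ifitm2 were near their WT levels. The median change of the 10 was 2.57, beside -0.01 over all genes tested. Mx1 and Mx2 passed the filter on low values only through the Tfam+/- libraries, with means of 5.58 and 8.36 over the other 6 libraries, so they entered the test because they are high there. Of the 8 other members, 6 rose.

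Bst2, the tether of budding particles, was at normalized counts of 276.5 and 275.8 in WT cells, 2357 and 1752 in Tfam+/- cells, 358 and 443 in Zbp1-/- cells and 440 and 472 in double mutant cells. Both Tfam+/- libraries were far above all others, and the Zbp1-/- and double mutant libraries overlapped each other just above WT. Tfam+/- exceeded WT by 2.87 ± 0.17 log2 units (SE, adjusted p 0.0017), a fold of 7.34 on the log2(count + 1) scale. This call held without any single library, with an adjusted p of at most 0.0368.

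Lgals3bp, a secreted glycoprotein that binds galectins and lowers the infectivity of some enveloped viruses, was at 766 and 720 in WT cells, 3802 and 2884 in Tfam+/- cells, 1089 and 1329 in Zbp1-/- cells and 1067 and 1128 in double mutant cells. As for Bst2, both Tfam+/- libraries were highest and the Zbp1-/- and double mutant libraries overlapped above WT. Its change in Tfam+/- against WT was 2.16 ± 0.16 (adjusted p 0.00341).

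Rtp4, a zinc-finger protein that binds viral RNA and represses its replication, was at 39.2 and 27.7 in WT cells, 349 and 446 in Tfam+/- cells, 52.7 and 35.7 in Zbp1-/- cells and 78.5 and 91.6 in double mutant cells. Here WT and Zbp1-/- overlapped, the double mutant lay above both, and Tfam+/- was highest. The change in Tfam+/- against WT was 3.54 ± 0.27 (adjusted p 0.00341), the largest estimate of the 10 and within its error of those of Ifi44 and Mx1. Rtp4 overlaps an untested gene model on the same strand, which shares 12.5% of its words.

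Rsad2, whose product viperin makes the chain-ending nucleotide, was at 24.5 and 21.4 in WT cells, 97.9 and 134 in Tfam+/- cells, 14.6 and 16.2 in Zbp1-/- cells and 26.6 and 29.6 in double mutant cells. The 4 genotypes did not overlap, and Zbp1-/- was lowest. The change in Tfam+/- against WT was 2.27 ± 0.23 (adjusted p 0.011).

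Ifi44, an interferon-induced protein with a GTP-binding domain whose action is less well defined, was at 22.0 and 26.0 in WT cells, 194 and 413 in Tfam+/- cells, 22.5 and 14.4 in Zbp1-/- cells and 48.9 and 52.9 in double mutant cells. The Tfam+/- libraries were again highest but differed from each other by 1.09 log2 units, more than for any other member in that genotype. The change in Tfam+/- against WT was 3.51 ± 0.38 (adjusted p 0.0143), and it was 4.06 in the 6 libraries without Tfam+/- replicate 1 and Zbp1-/- replicate 2.

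Of the Mx GTPases, Mx2 was at 5.93 and 7.48 in WT cells, 61.6 and 80.2 in Tfam+/- cells, 6.11 and 8.36 in Zbp1-/- cells and 10.5 and 11.9 in double mutant cells. Mx1 was at 1.96 and 1.90 in WT cells, 25.7 and 37.1 in Tfam+/- cells, 1.03 and 4.15 in Zbp1-/- cells and 8.53 and 15.9 in double mutant cells. In both genes the WT and Zbp1-/- libraries overlapped, the double mutant was above them and Tfam+/- was highest. The change in Tfam+/- against WT was 3.22 ± 0.30 for Mx2 (adjusted p 0.00788). Near the low end of the table a fold depends on the added constant: the Mx1 change was 3.93 with 0.1 added (adjusted p 0.0923) and 2.37 with 5 added (adjusted p 0.0372, called).

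The 3 neighbouring Ifitm genes did not share a call. Ifitm3, the family member that guards endosomes, was at 3011 and 2882 in WT cells, 5675 and 4865 in Tfam+/- cells, 3962 and 4239 in Zbp1-/- cells and 3455 and 3404 in double mutant cells. No genotype overlapped another, and the change in Tfam+/- against WT was 0.83 ± 0.11 (adjusted p 0.0274), a fold of 1.78. Ifitm2, its closest relative, was at 2758 and 2724 in WT cells, 3279 and 2842 in Tfam+/- cells, 3745 and 4258 in Zbp1-/- cells and 3361 and 3457 in double mutant cells. Zbp1-/- was the highest genotype for Ifitm2, and Tfam+/- exceeded WT by 0.16 ± 0.11 (adjusted p 0.559). Ifitm1, found mostly at the cell surface, was at 36.3 and 29.8 in WT cells, 38.5 and 20.9 in Tfam+/- cells, 82.0 and 84.1 in Zbp1-/- cells and 70.0 and 74.6 in double mutant cells. For this gene the libraries split by Zbp1, with all 4 Zbp1-/- libraries above the 4 others, and Tfam+/- overlapped WT (-0.20 ± 0.29, adjusted p 0.706). The share of all genes with this split was not computed. In 42.1% of all genes tested both Zbp1-/- libraries lay above both WT libraries. Both double mutant libraries lay above both Tfam+/- libraries in 42.4%. Whether the changes of the 3 Ifitm genes differ from each other was not tested. The response element core in the Ifitm2 window, which lies inside the gene span, did not go with a called rise. Lgals3bp rose with no GAAANNGAA match in its window.

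Both Tfam+/- libraries lay above both WT libraries in 9 of the 10 genes, while 23.3% of all genes tested did so; the exception was Ifitm1. With the term shared by the 2 shifted libraries 8 members were called higher, Mx1 being added (3.23, adjusted p 0.00137), as 7.39% of all genes were. In the 6 other libraries the count was also 8, beside 6.98% of all genes. The count of members called fell when a WT or double mutant library was left out, as did the count over all genes. Such a fit leaves 1 library in a genotype. The sizes moved little, with a median of 2.53 to 2.66 without any single library. The leukocyte marker list was higher by a median of 0.41 in this comparison with 0 of 10 called (limma; 5 at an unadjusted p under 0.05). Of these 10, Aif1 passed the filter only through the Tfam+/- libraries, with means of 6.76 to 8.70 in the other genotypes. The medians of the tested epithelial (3 genes), muscle (2) and endothelial (2) markers were 0.76, 0.48 and 0.37, also with 0 called (1 in each list at an unadjusted p under 0.05), and that of the fibroblast markers was -0.03. The part of these cell types in the result was not tested.

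Genes were set beside each other by normalized count per kilobase of annotated exon. The scaling of the counts is not stated and the transcript forms present are unknown, so the order is approximate. In WT it was Ifitm3 (4345), Ifitm2 (4185), Bst2 (306), Lgals3bp (261), Ifitm1 (30.2), Rtp4 (15.7), Rsad2 (5.29), Ifi44 (3.92), Mx2 (1.85) and Mx1 (0.51). In Tfam+/- the levels were 7773 for Ifitm3, 4673 for Ifitm2, 2275 for Bst2, 1174 for Lgals3bp, 186 for Rtp4, 49.5 for Ifi44, 27.2 for Ifitm1, 26.7 for Rsad2, 19.6 for Mx2 and 8.29 for Mx1. By this measure the highest members in WT were Ifitm3 and Ifitm2, whose changes in Tfam+/- were among the smallest, and Ifitm1 was passed by Rtp4 and Ifi44. Ifitm3 and Ifitm2 share sequence with other genes, so their order is uncertain.

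The second question was whether the raised levels are kept when Zbp1 is also absent. In Tfam+/-Zbp1-/- against Tfam+/-, 7 of the 10 fell, the ones called above, while 2.32% of all genes tested were called lower. Mx2 is among these 7 and was tested only because it is high in Tfam+/-; of the 8 members that pass the filter without those libraries, 6 fell. The log2 changes were -2.15 ± 0.17 for Bst2 (adjusted p 0.00251), -2.55 ± 0.30 for Mx2 (adjusted p 0.00592), -1.99 ± 0.23 for Rsad2 (adjusted p 0.00592) and -2.20 ± 0.27 for Rtp4 (adjusted p 0.00665). Ifi44 fell by 2.45 (SE 0.38, adjusted p 0.0154), Lgals3bp by 1.59 (SE 0.16, adjusted p 0.00438) and Ifitm3 by 0.62 (SE 0.11, adjusted p 0.0233). Mx1 was -1.33 ± 0.55 (adjusted p 0.236). Ifitm1 went the other way, at 1.32 ± 0.29 (adjusted p 0.0518), and Ifitm2 was at 0.16 ± 0.11 (adjusted p 0.433). This comparison shares the Tfam+/- libraries with the one above, so the matching set of genes is not a separate observation.

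Both double mutant libraries lay below both Tfam+/- libraries in 8 of the 10 genes, beside 13.5% of all genes tested. The median change was -1.79, while the median over all genes was 0.14. Scaling by trimmed means of M-values moved that all-gene median to 0.01, the medians of Zbp1-/- and of the double mutant against WT from 0.11 and 0.12 to 0.00, and the split of calls in this comparison from 440 higher and 308 lower to 307 higher and 425 lower. It changed no direction of a called member. With the shared term the same 7 genes were called lower (10.2% of all genes were), and Ifitm1 (1.54, adjusted p 7.92e-05) and Ifitm2 (0.26, adjusted p 9.2e-06) were called higher, as were 35.4% of all genes. In the 6 other libraries 7 were again lower, beside 9.87% of all genes. Without either double mutant library the calls were lost, as most calls over all genes were. The sizes stayed close to those above (median -1.90 to -1.73 over all single libraries left out). The leukocyte markers fell in this comparison too: 8 of 10 were called lower, with a median of -1.22, among them C1qa (-1.67), Csf1r (-1.39) and Itgam (-1.39). These 10 include Aif1, which was tested only because it is high in Tfam+/-. Median changes of the few tested markers of other cell types were of similar size, at -1.19 for epithelial markers (2 of 3 called lower), -1.27 for endothelial markers (1 of 2) and -1.30 for muscle markers (1 of 2), while that of the fibroblast markers was 0.16 (2 of 10 called higher). The part of these cell types in the fall of the effectors was not tested.

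**Figure D3:**
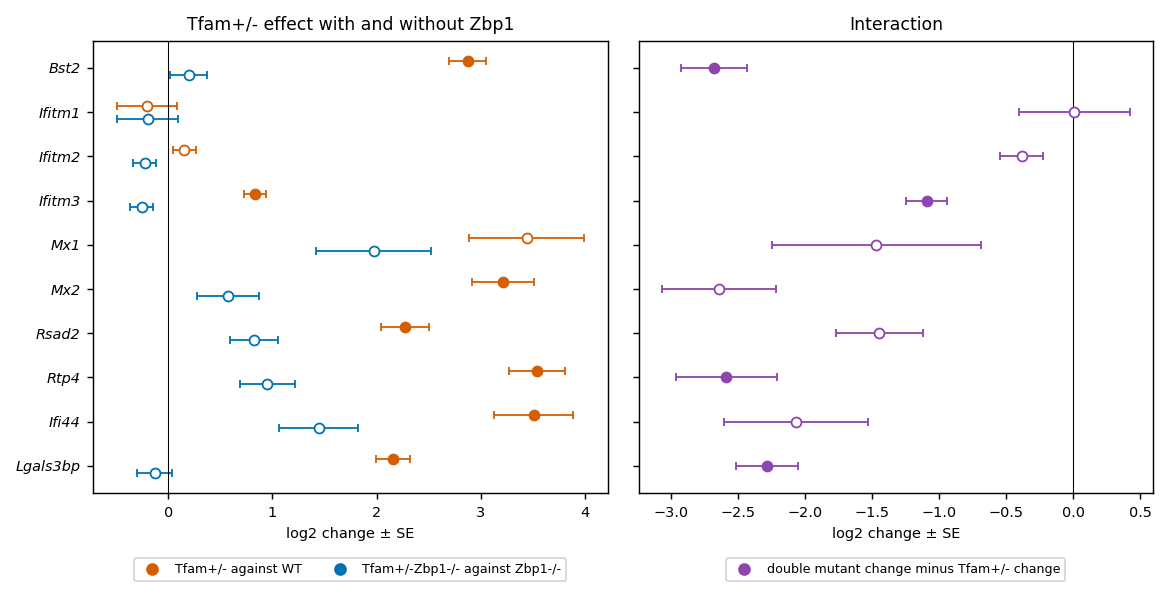
Left, log2 change ± SE of each member on loss of a Tfam allele, in cells with Zbp1 (Tfam+/- against WT) and without it (Tfam+/-Zbp1-/- against Zbp1-/-); right, the difference of the 2 changes. Filled points passed an adjusted p of 0.05 in limma (2 libraries per genotype); the filled points on the left all belong to Tfam+/- against WT, and 4 points are filled on the right.

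In cells without Zbp1, loss of a Tfam allele left 0 of the 10 called (Tfam+/-Zbp1-/- against Zbp1-/-; limma, 5 at an unadjusted p under 0.05), where 0.106% of all genes tested were called higher. Mx1 (1.97 ± 0.55), Ifi44 (1.44 ± 0.38), Rtp4 (0.95 ± 0.27), Rsad2 (0.83 ± 0.23) and Mx2 (0.57 ± 0.30) had both double mutant libraries above both Zbp1-/- libraries, which 26.2% of all genes tested also had; their adjusted p ranged from 0.199 to 0.494. Bst2 (0.19 ± 0.17) and Lgals3bp (-0.13 ± 0.16) overlapped, and Ifitm1 (-0.20 ± 0.29), Ifitm2 (-0.23 ± 0.11) and Ifitm3 (-0.26 ± 0.11) had both double mutant libraries below. With the shared term Bst2, Mx1, Rtp4 and Ifi44 were called higher, at 0.38 to 2.18, as 12.8% of all genes were, and Ifitm2 and Ifitm3 were called lower, as were 11% of all genes. In the 6 other libraries Rsad2 was added to these 4 (12.6% of all genes).

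The difference between these effects of the Tfam allele was tested as an interaction, the double mutant's change from Zbp1-/- less that of Tfam+/- from WT. It was called for 4 of the 10, all lower, while 0.445% of all genes were called lower: Bst2 (-2.68 ± 0.25, adjusted p 0.0187), Lgals3bp (-2.29 ± 0.23, adjusted p 0.0193), Ifitm3 (-1.09 ± 0.15, adjusted p 0.0403) and Rtp4 (-2.59 ± 0.38, adjusted p 0.0465). Mx2 had a value as large, -2.64 ± 0.42, with an adjusted p of 0.061. Ifi44 (-2.07 ± 0.54, adjusted p 0.167), Mx1 (-1.47 ± 0.78, adjusted p 0.33) and Rsad2 (-1.45 ± 0.33, adjusted p 0.126) were also below 0 and did not pass. For Ifitm2 the value was -0.38 ± 0.16 (adjusted p 0.312), and for Ifitm1 it was 0.01 ± 0.41 (adjusted p 0.992). Leaving out a single library leaves 1 in its genotype. The Rtp4 call was lost whichever library was left out, and the other calls for most libraries. Calls over all genes also became fewer, except without Tfam+/- replicate 2, where they became more. With single libraries left out the values were -2.89 to -2.47 for Bst2 and -2.49 to -2.09 for Lgals3bp. For Rtp4 they were -2.86 to -2.32, and for Ifitm3 -1.2 to -0.98. With the shared term 8 members were called lower, all but Ifitm1 and Mx1, where 8.43% of all genes were, and the count was also 8 in the 6 other libraries (9.14%).

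Without a change at Tfam, loss of Zbp1 called 0 of the 10 (Zbp1-/- against WT; limma, 5 at an unadjusted p under 0.05), while 0.897% of all genes were called higher. Bst2 (0.53 ± 0.17), Ifitm1 (1.31 ± 0.29), Ifitm2 (0.54 ± 0.11), Ifitm3 (0.48 ± 0.11) and Lgals3bp (0.69 ± 0.16) had both Zbp1-/- libraries above both WT libraries, with adjusted p of 0.0895 to 0.191; 42.1% of all genes tested did so. Rsad2 was below WT in both libraries (-0.54 ± 0.23, adjusted p 0.255), and Mx1, Mx2, Rtp4 and Ifi44 overlapped WT. With the shared term the same 5 genes and Rtp4 were called higher (28.5% of all genes were). In the 6 other libraries these genes had changes of 0.37 (Bst2) to 1.29 (Ifitm1). The fibroblast markers had a median change of 0.47, beside 0.43 for the 10 effectors; all 10 were above 0, 9 had both Zbp1-/- libraries above both WT libraries, and 1 (Pdgfra, 0.80 ± 0.12) was called higher. The leukocyte markers had a median change of -0.52, with 1 of 10 called lower. The part of either cell type was not tested.

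The double mutant against WT also had 0 called (limma, 7 at an unadjusted p under 0.05), with 0.897% of all genes called higher. Each of the 10 had both double mutant libraries above both WT libraries, and so did 58.8% of all genes tested. The median change was 0.69, from 0.22 ± 0.11 for Ifitm3 to 2.11 ± 0.55 for Mx1 (adjusted p 0.15); Rtp4 was at 1.34 ± 0.27 (adjusted p 0.0724) and Ifi44 at 1.06 ± 0.38 (adjusted p 0.314). With the shared term 8 were called higher, all but Mx2 and Rsad2, beside 35.3% of all genes, and in the 6 other libraries 8 were called, beside 37.1%. In this comparison the leukocyte markers had a median of -0.81 (3 of 10 called lower), 1 of 2 endothelial and 1 of 3 epithelial markers tested were called lower, and the fibroblast markers had a median of 0.15 with 0 called (limma; 2 at an unadjusted p under 0.05). Their part was not tested.

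The pathway around these effectors was described with lists of its other genes. Of 43 other interferon-induced effectors, 40 could be tested. In Tfam+/- against WT 30 rose and 0 fell, with a median of 1.94, while 0.565% of all genes were called higher. Oas2 and Oas3 passed the filter only through the Tfam+/- libraries, with means of 3.31 to 8.82 and 4.33 to 5.7 in the other genotypes. Both are among the falls counted below, and Oas2 is also among the rises and the interaction calls. The largest rises were those of Usp18 (4.81 ± 0.21), which removes ISG15 from proteins and dampens receptor signalling, Isg15 (4.33 ± 0.25), a ubiquitin-like modifier, and Oasl2 (4.10 ± 0.25), of the oligoadenylate synthetase family. In Tfam+/-Zbp1-/- against Tfam+/- 31 of the 40 fell, with a median of -1.52, while 2.32% of all genes were called lower. The largest falls were those of Usp18 (-3.38 ± 0.21), Isg15 (-2.87 ± 0.25) and Oas1a (-2.85 ± 0.19). The interaction was called lower for 18 of the 40, beside 0.445% of all genes. In the double mutant against WT 2 were higher, Usp18 and Ifit3, beside 0.897% of all genes. Not all members of the list rose: Ifit2 (0.29), Samhd1 (0.04) and Apobec3 (0.12) were among those that did not pass.

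Among 15 receptor and signalling genes, 4 rose in Tfam+/- against WT, while 0.565% of all genes tested were called higher. They included Irf7 (3.46 ± 0.29), which amplifies interferon production, Stat2 (1.69 ± 0.13) and Irf9 (1.48 ± 0.10), the DNA-binding part of the complex that recognises the response element. In Tfam+/-Zbp1-/- against Tfam+/- 4 fell, including Irf7 (-2.43 ± 0.29), Stat2 (-1.23 ± 0.13) and Irf9 (-0.93 ± 0.10), while 2.32% of all genes were called lower. The receptor gene Ifnar1 rose (0.65 ± 0.12, adjusted p 0.03), where 3.32% of all genes were called higher. Of 9 interferon genes, Ifnb1, Ifna1, Ifna2, Ifna5, Ifng, Ifnl2 and Ifnl3 were listed at 0 in every library. Ifna4 was at 1.10 in Tfam+/- replicate 1 and at 0 elsewhere, and Ifne was at 0.981 and 1.86 in WT and at 0 elsewhere. None of these 9 genes reached the filter, and other interferon genes were not examined.

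**Figure D4:**
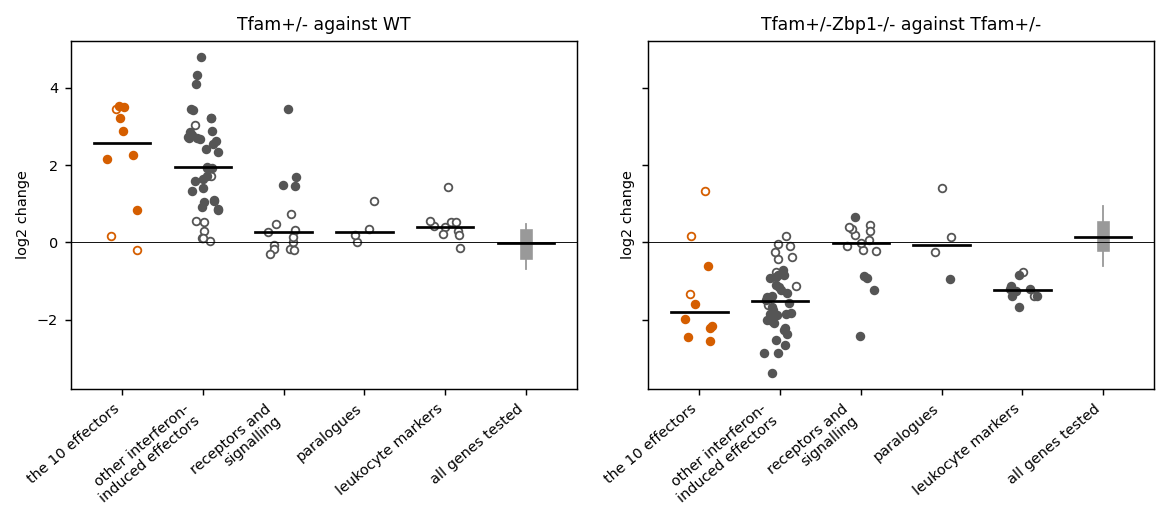
Log2 change of each tested gene of each list in Tfam+/- against WT (left) and Tfam+/-Zbp1-/- against Tfam+/- (right); filled points were called, lines are medians, and for all genes tested the bar spans the middle quartiles and the thin line the 5th to 95th percentile. The 10 effectors have medians of 2.57 and -1.79 and the other effectors 1.94 and -1.52, Ifitm1 (-0.20 and 1.32) lies outside the range of the other effectors in both panels, and the leukocyte markers differ more in the right panel (-1.22) than in the left (0.41).

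Relatives of the members were described next. Of 11 paralogues 4 were tested, and 0 were called in Tfam+/- against WT (limma, 1 at an unadjusted p under 0.05). Rtp1 and Rtp2 were listed at 0 in every library, and Rtp3, Ifitm5, Ifitm6, Ifitm7 and Ifi44l did not exceed 7.57 in any. Ifi44l, a close relative of Ifi44, was at 3.98 in Tfam+/- replicate 2 and at 0 in replicate 1. In Tfam+/- against WT, Ifitm10 was at 0.00 ± 0.43, Lgals3, the galectin that Lgals3bp is named for, at 0.19 ± 0.17, and Lgals1 at 0.34 ± 0.20. Lgals9, another galectin, was at 679 and 680 in WT cells, 1646 and 1225 in Tfam+/- cells, 1187 and 1427 in Zbp1-/- cells and 717 and 746 in double mutant cells. Both libraries of every mutant genotype were above both WT libraries, the double mutant by the least (0.11 ± 0.17, adjusted p 0.864). Its change was 1.06 ± 0.17 in Tfam+/- (adjusted p 0.0532) and 0.94 ± 0.17 in Zbp1-/- (adjusted p 0.0626) against WT, -0.96 ± 0.17 in the double mutant against Tfam+/- (adjusted p 0.0225, called), and -1.89 ± 0.23 for the interaction (adjusted p 0.0299, called).

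Genes beside the members on the chromosome were examined within 100000 bases. Of 10 tested neighbours outside the 10, 1 rose in Tfam+/- against WT: Cmpk2, 12665 bases from Rsad2, which makes the nucleotide that viperin uses (2.34 ± 0.25, adjusted p 0.0127). It was itself on the list of other effectors. The other 9 (Plvap, Mvb12a, Pgghg, B4galnt4, Bace2, Rnf144a, Ptgfr, Timp2 and Cant1) ranged from -1.44 (Plvap) to 0.44 (Mvb12a), and the median of the 10 was 0.05. Bst2 thus rose between neighbours that were not called, Plvap at 22449 bases and Mvb12a at 5435 bases.

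Across the 8 libraries, 8 members shared a profile and 2 did not. The mean centred log2 level of the 10 was -0.80 and -0.87 in WT cells, 1.31 and 1.38 in Tfam+/- cells, -0.59 and -0.43 in Zbp1-/- cells and -0.09 and 0.09 in double mutant cells. The Pearson correlation of each member with the mean of the 9 others was 0.98 for Rtp4, 0.97 for Bst2 and Mx2, 0.94 for Lgals3bp, 0.93 for Ifi44, 0.92 for Rsad2, 0.91 for Mx1 and 0.82 for Ifitm3, but -0.11 for Ifitm2 and -0.47 for Ifitm1. Ifitm1 and Ifitm2 correlated with each other at 0.86. The 5 genes outside the 10 most like the mean profile, among those spanning at least 1 log2 unit, were Irf9 (0.996), Usp18 (0.993), Xaf1 (0.992), Isg15 (0.990) and Ifit3 (0.989). These are descriptions over 8 libraries that share genotypes in pairs.

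**Figure D5:**
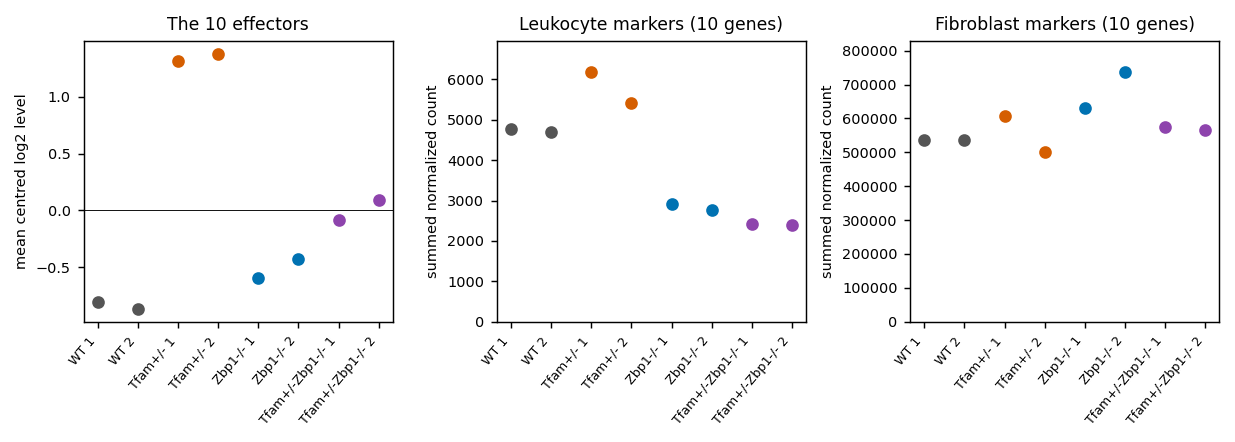
Mean centred log2 level of the 10 effectors, and summed normalized counts of 10 leukocyte and 10 fibroblast markers, in each library; numbers after the genotype are replicates. The effectors are highest in both Tfam+/- libraries (1.31 and 1.38) and lowest in WT, the leukocyte sum is highest in Tfam+/- (5428 and 6186) and lowest in the double mutant (2393 and 2418), and the fibroblast sum is highest in Zbp1-/- replicate 2 (737090).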

How the data were processed

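RNA sequencing of 8 libraries (4 genotypes, 2 libraries each, grouped by label) was deposited as a table of normalized counts per gene. The authors normalized this signal before deposit, per the series' design text, and its values are at least 0 and hold fractions. STAR 2.6.1a and Salmon are named in the submitters' processing notes, and the mm10 assembly with RefSeq genes in the series' design text; the scaling and the use of strand are not stated in the labels. Whole reads could not be recovered (22.1% to 34.8% of low values lay within 0.01 of a whole number), so depth in reads is unknown and no count model was used.

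limma 3.58.1 in R 4.3.3 (lmFit, eBayes with trend) fitted the 4 genotypes together on log2(normalized count + 1), with 4 residual and 2.77 prior degrees of freedom, for the 13267 genes with a mean of at least 10. All 10 members passed. Tests were two-sided, with Benjamini-Hochberg adjustment over all genes tested. With 2 libraries against 2, the smallest p of an exact permutation test is 0.333. The script was tested on simulated data.

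The members and lists, the rule for named genes and the use of the 2 shifted libraries were chosen with earlier results of these data known, and AANNGAAA was added after the promoter sequences were seen. Named were the members, Tfam, Zbp1, the 5 genes most like the mean profile, the 3 called genes of each list with the largest rise and fall, all paralogues and interferon genes listed, and tested neighbours; Ifit2, Samhd1, Apobec3 and Pdgfra were named after their values were seen. Not every gene the rule takes is reported here. Other settings tried were an added constant of 0.1 or 5, a minimum mean of 50 or none, scaling by trimmed means of M-values, eBayes without trend, separate fits of each genotype pair, a replicate block, and fits without single libraries.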

Additional observations from a re-analysis of the deposited data

Results flagged for a closer look

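The effect of losing a Tfam allele differed between cells with and without Zbp1, by the interaction test of limma, for 4 of the 10 genes, while 0.445% of all genes tested were called lower. All 4 calls were lost under the replicate block, where 0 of all 13267 genes tested were called. The Rtp4 call was also lost whichever single library was left out, and the other calls for most libraries. Calls over all genes became fewer too, except without Tfam+/- replicate 2, where they became more. For Bst2 the difference was -2.68, as Tfam+/- exceeded WT by 2.87 while the double mutant exceeded Zbp1-/- by 0.19. For Lgals3bp it was -2.29, with changes of 2.16 and -0.13. For Rtp4 it was -2.59, with changes of 3.54 and 0.95. For Ifitm3 it was -1.09, with changes of 0.83 and -0.26.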

How the results depend on the processing

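Signs of called members held under every alternative run. Leaving out single libraries gave 1 to 8 members called in Tfam+/- against WT (median change 2.53 to 2.66), 0 to 7 in Tfam+/-Zbp1-/- against Tfam+/- (-1.90 to -1.73), 0 to 3 for the interaction (-2.00 to -1.37), 0 to 1 (Ifitm1) in Zbp1-/- against WT (0.34 to 0.58) and in Tfam+/-Zbp1-/- against WT (0.63 to 0.76), and 0 in Tfam+/-Zbp1-/- against Zbp1-/- (0.21 to 0.51). The term shared by 2 libraries gave 6 called in Zbp1-/- against WT, 8 in Tfam+/-Zbp1-/- against WT, 8 for the interaction and 6 in Tfam+/-Zbp1-/- against Zbp1-/- (median 0.48), and a median of -1.70 in Tfam+/-Zbp1-/- against Tfam+/-. The 6 other libraries gave a median of 0.51 in Tfam+/-Zbp1-/- against Zbp1-/-. Fitting only the genotypes compared gave 4 called in Tfam+/- against WT, where 0.211% of all genes were called, and 8 in Tfam+/-Zbp1-/- against WT, where 44.7% were. Replicate numbers did not pair the libraries (correlations of replicate differences from -0.70 to 0.06); the replicate block gave 4 called in Tfam+/- against WT and 0 for the interaction, and the crossed block, chosen after seeing the data, 8 in Tfam+/-Zbp1-/- against WT, where 46.8% of all genes were called. No filter left 2 interaction calls. A pseudocount of 5 gave a median of 2.26 in Tfam+/- against WT. A mean of at least 50, which leaves out Mx1, Mx2 and Rsad2, gave medians of 2.16, 0.53 (Zbp1-/- against WT), -1.59, -0.13 and -2.07. Rescaling gave 0.32, 0.58 (double mutant against WT) and -1.93. Causes of these changes were not tested. The 2 libraries per genotype and the unknown read depth limit all values, most of all for Mx1 and Mx2.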
